A study of Mus musculus with 15 samples.

Results

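The genes described are the sugar and monocarboxylate transporters of mouse small intestinal epithelium, taken as every measured gene whose symbol starts with Slc2a, Slc5a or Slc16a. The rule found 39 of 19938 genes, 13 in each family, of which 38 are annotated as protein-coding. The remaining member, Slc2a4rg-ps, is a pseudogene that matches by its symbol and is no transporter. Wild-type BALB/c mice 10 weeks old received a fusion protein of glutathione S-transferase and RANKL intraperitoneally, 2 injections a day, for 1, 2, 3 or 4 days. Controls were wild-type BALB/c mice of the same age with no agent. Each of the 5 groups had 3 Affymetrix whole-transcript arrays, 15 in all, with epithelium detached by 30 mM EDTA over 10 min and needle peeling. A group treated with GST or vehicle by itself is not analysed here, so effects of RANKL, of GST and of the injections cannot be told apart. Nothing in the labels says whether the arrays of a group were separate mice, so each p-value reflects only how far these samples spread, which may be technical.

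RANKL is a cytokine of the tumour necrosis factor family, and in gut epithelium it drives the formation of M cells, which carry particles from the lumen to the lymphoid tissue below. The Slc2a genes encode the GLUT proteins, which let sugars or related polyols pass down their gradient, while the Slc5a genes encode the SGLT proteins and relatives, which couple uptake of sugars, inositols, vitamins, iodide or short acids to sodium. The Slc16a genes encode the MCT family, whose best known members carry lactate, pyruvate and ketone bodies with a proton. In enterocytes, SGLT1 brings glucose and galactose across the brush border, GLUT5 brings fructose, and GLUT2 passes sugars on at the basolateral side.

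Promoter sequences were available for 29 of the 39 members, as the 250 bases before the annotated start in RefSeq (build GRCm38.p6). The 5 printed here are those of the member with the largest rise, the member that fell on most days, and 3 members whose level varied with that of lactase within groups. They are given 5′ to 3′ in the direction of transcription, with CpG dinucleotides in capitals.
Slc2a6 (chr2:27027999-27028248, minus strand): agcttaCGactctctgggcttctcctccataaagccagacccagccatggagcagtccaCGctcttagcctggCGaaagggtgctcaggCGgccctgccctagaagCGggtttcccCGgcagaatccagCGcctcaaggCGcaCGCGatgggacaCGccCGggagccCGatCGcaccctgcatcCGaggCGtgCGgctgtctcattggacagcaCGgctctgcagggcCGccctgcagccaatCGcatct
Slc5a6 (chr5:31048563-31048812, minus strand): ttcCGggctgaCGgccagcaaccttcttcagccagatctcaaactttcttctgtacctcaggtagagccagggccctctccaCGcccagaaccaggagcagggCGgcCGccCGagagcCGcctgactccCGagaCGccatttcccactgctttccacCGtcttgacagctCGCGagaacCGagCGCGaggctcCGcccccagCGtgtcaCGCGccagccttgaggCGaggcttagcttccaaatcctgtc
Slc2a2 (chr3:28697653-28697902, plus strand): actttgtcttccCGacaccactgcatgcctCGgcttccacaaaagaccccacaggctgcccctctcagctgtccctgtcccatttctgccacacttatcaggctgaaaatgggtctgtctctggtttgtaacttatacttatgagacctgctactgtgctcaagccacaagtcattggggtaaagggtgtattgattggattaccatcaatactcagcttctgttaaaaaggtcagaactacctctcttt
Slc5a11 (chr7:123214616-123214865, plus strand): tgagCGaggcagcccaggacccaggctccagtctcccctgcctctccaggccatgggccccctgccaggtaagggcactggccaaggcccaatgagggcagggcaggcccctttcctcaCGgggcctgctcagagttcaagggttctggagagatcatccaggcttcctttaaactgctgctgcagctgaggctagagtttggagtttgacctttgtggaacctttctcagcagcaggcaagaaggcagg
Slc5a4a (chr10:76147201-76147450, plus strand): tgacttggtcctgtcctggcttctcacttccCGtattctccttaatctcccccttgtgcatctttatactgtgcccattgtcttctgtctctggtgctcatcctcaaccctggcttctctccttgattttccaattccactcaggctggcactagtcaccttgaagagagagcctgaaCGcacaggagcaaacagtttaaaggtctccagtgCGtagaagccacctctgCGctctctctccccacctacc
Slc5a6 has 2 annotated starts, each with a window, and the one farther upstream is printed. The window of Slc2a6 and both windows of Slc5a6 held 20 CpG dinucleotides each, against a median of 6 over all 32851 windows. The windows of Slc2a2, Slc5a11 and Slc5a4a held 2, 2 and 4. Other members that varied with lactase were not all alike in this. Slc16a10 held 21, Slc5a1 held 6, and Slc2a7 and Slc5a4b held 2 each. The word CACGTG, an E-box that reads the same on both strands, occurred in the windows of Slc16a1, Slc16a12 and Slc5a1 and in 6.02% of all windows. On either strand, the NF-kB consensus occurred in those of Slc2a13 and Slc5a8 and in 7.25% of all windows, and the Slc2a6 window had no match. GAGGAAGT, the core bound by Spi-B and PU.1, occurred in 2.44% of all windows and the recognition sequence of HNF1 in 0.371%, and neither was found in a member's window on either strand. These matches describe the letters of the windows only.

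Epithelial genes were bright on every array: Sis (sucrase-isomaltase) read 12.96 to 13.56 on the log2 intensity scale used throughout, and Alpi (intestinal alkaline phosphatase) read 11.97 to 12.74. Of 10 M cell markers, 9, 10, 10 and 8 were higher than in control on days 1, 2, 3 and 4. Their summed intensity was 2298 to 2711 in control, 9661 to 12840 on day 1, 15375 to 18165 on day 2, 10513 to 15334 on day 3 and 5694 to 8594 on day 4. Array medians ran from 147 to 167 before normalization, with RANKL day 1 replicate 2 the highest and also the array with the narrowest spread of values. Of the other cell types, 0, 3, 4 and 6 of 8 tuft cell markers were higher on days 1 to 4. Of 10 enteroendocrine markers, 1 was higher on day 3 and 4 on day 4. At most 1 marker of the enterocyte, Paneth, stem cell, B cell and macrophage lists was called on any day. With limma's unadjusted p under 0.05 were at most 2, 4, 6, 1 and 4 of them on 1 day. The 6 were stem and cycling markers, of 7 measured, on day 3. Those 7 summed to 5006 to 5906 in control, 5937 to 6784 on day 1 and 4502 to 9183 on day 2. On days 3 and 4 their sum was 8296 to 9503 and 7290 to 8462. No goblet (7 measured), T cell (12), neutrophil (8) or stromal (13) marker and neither the single erythroid marker nor the 3 genes of the Y chromosome passed limma's test on any day, with at most 1, 6, 3, 0, 0 and 0 of them at an unadjusted p under 0.05 on 1 day. In bulk epithelium, fewer cells of a type and less RNA per cell cannot be told apart.

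Transporter genes moved in both directions, and most did not pass the test. A gene was called where limma's moderated test, adjusted by Benjamini-Hochberg over all 19938 genes, gave an adjusted p under 0.05. On day 1, 5 of 39 members were called (12.8%, 2 higher and 3 lower), against 3.94% of all genes. Day 2 also had 5 (3 higher and 2 lower), against 2.57% of all genes. Day 3 had 4 (10.3%, 3 higher and 1 lower), against 2.96%, and day 4 had 3 (7.69%, all higher), against 0.908%. The shares of members called lay above those of all genes on each day, as counts of 3 to 5 genes. Members were also brighter than genes at large, with a median log2 level of 7.97 beside 7.34 for all genes. Shares among genes of like brightness were not computed. The median change of the members stayed near 0, at −0.05, −0.06, −0.07 and 0.02 over the 4 days, beside −0.01, −0.02, −0.01 and 0.01 for all genes.

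Over the 4 days, 7 members were called on at least 1 day and 32 on none. The share of all genes called on at least 1 day was not computed, so these counts are a tally only. Slc2a6 and Slc16a6 were higher on all 4 days, and Slc5a6 was lower on 3 days. Slc2a1 was higher and Slc2a13 lower on 2 days each, and Slc2a10 (higher) and Slc5a4a (lower) were called on 1 day each. The moderated F test over the 4 days called 7 members (17.9%, against 3.6% of all genes), of which Slc16a3 passed no single day and from which Slc5a4a was missing. The F call of Slc2a13 (adjusted p 0.0470) was lost without any 1 of 10 arrays. Those of Slc2a1 (0.0322) and Slc2a10 (0.0172) were lost without any 1 of 6 and of 2 arrays. Ordinary statistics ended these calls and that of Slc5a6 (0.0510), and median centring ended those of Slc2a1 and Slc2a13. The Slc2a13 call was also lost as deposited (0.0861) and with a trended and robust prior (0.0556). By family, all members that fell were Slc5a or Slc2a genes, and the single Slc16a gene called on any day rose.

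**Figure D1:**
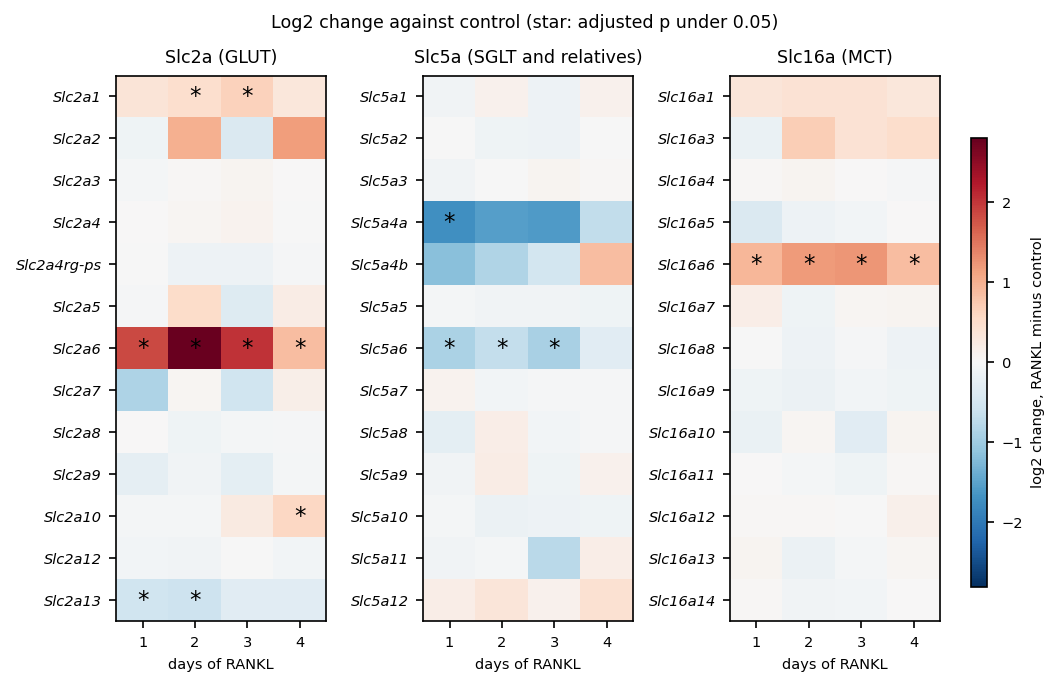
Log2 change against control (colour) of all 39 members on days 1 to 4 of RANKL, by family, with a star where the adjusted p is under 0.05. Slc2a6 reached 2.77 on day 2 and Slc5a4a fell by 1.71 on day 1.

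Among the GLUT genes, Slc2a6 had the largest change of any member. It encodes GLUT6, a sugar transporter known mainly from intracellular, lysosomal membranes and from activated macrophages. It read 8.04, 7.71 and 7.76 on the control arrays, 9.71, 9.77 and 9.56 on day 1, 10.43, 10.46 and 10.93 on day 2, 9.58, 9.87 and 10.15 on day 3, and 8.51, 9.01 and 8.55 on day 4. Every RANKL array lay above every control array, the day 2 arrays were the highest, and day 4 lay below the other RANKL days. The log2 change was 1.85 on day 1 (SE 0.17, 3.60-fold, adjusted p 3.73e-05), 2.77 on day 2 (adjusted p 1.08e-06) and 2.03 on day 3 (4.09-fold, adjusted p 1.90e-05). On day 4 it was 0.85 (1.81-fold, adjusted p 0.0354). That call was lost without any 1 of the day 4 arrays or without control replicate 2 or 3, with changes of 0.69 to 0.94 and adjusted p of 0.0573 to 0.181. It was also lost with only the 2 groups fitted (0.0620) and with ordinary statistics (0.122). Between RANKL days, Slc2a6 was 3.78-fold lower on day 4 than on day 2 (log2 −1.92, adjusted p 0.000163). The difference of day 2 over day 1 was 0.93, with an adjusted p of 0.0547 that fell below 0.05 (0.0399 to 0.0492) without RANKL day 3 replicate 1 or 3 or day 4 replicate 2. That adjusted p also fell below 0.05 under 3 of 11 settings other than leaving out 1 array.

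The genes outside the families whose level over the 15 arrays was most like that of Slc2a6 were Scg5 and Sox8 (Pearson r 0.98 each), and Epha4, Clu and Tmem229b (0.97 each). Sox8 and Clu stand in the M cell list. The same arrays, with the same group means, underlie all of these values. Among M cell genes, Spib had an r of 0.93 and Gp2 an r of 0.53. The transcription factor genes Nfkb2 and Relb had 0.70 and 0.29. The M cell sum thus moved with Slc2a6 in having its highest arrays on day 2 and its lowest RANKL arrays on day 4, and its part in the result was not tested. Not every marker of the list took this course. Gp2 read 5.80 to 6.25 on day 1, against 5.94 to 6.22 in control, then 9.59 to 10.00 on day 2 and 10.12 to 11.49 on day 3. Marcksl1 had its highest arrays on day 1 (10.55, 10.76 and 10.67). Of 15 macrophage and dendritic cell markers, Csf1r was lower on day 1 (log2 −0.36, adjusted p 0.0458) and Itgam higher on day 2 (0.99, adjusted p 0.00418). On days 3 and 4 limma called none of the 15, with 1 at an unadjusted p under 0.05 on each day. Their summed intensity was 3252 to 4551 over the RANKL days, against 3548 to 4187 in control, so the groups overlapped. Lyz2, at 9.70 to 10.60, was the brightest of the 15 and weighs most in that sum, so changes of dimmer markers may not show. Itgam had its highest arrays on day 2 (8.45, 8.53 and 8.91, against 7.64, 7.74 and 7.55 in control). The part of these cells in the result was not tested.

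Slc2a1 encodes GLUT1, the widely expressed glucose transporter. It read 9.25, 9.03 and 9.01 in control, 9.31, 9.53 and 9.53 on day 1, 9.65, 9.45 and 9.62 on day 2, 9.92, 9.56 and 9.75 on day 3, and 9.26, 9.36 and 9.58 on day 4. All RANKL arrays lay above all control arrays, though day 4 replicate 1 did so by a narrow margin. The change was 0.65 on day 3 (SE 0.11, 1.57-fold, adjusted p 0.00733) and 0.48 on day 2 (1.40-fold, adjusted p 0.0391). The day 2 call was lost without 8 of the 15 arrays, each left out alone: RANKL day 1 replicate 3, day 2 replicates 1, 2 and 3, day 3 replicate 3, day 4 replicate 2 and control replicates 2 and 3 (changes 0.44 to 0.54, adjusted p 0.0511 to 0.166). It was also lost with median centring (0.101), ordinary statistics (0.0911) and values as deposited (0.0553). Days 1 and 4, with changes of 0.37 and 0.31, did not pass (adjusted p 0.103 and 0.370).

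Slc2a10 encodes GLUT10, whose loss in humans causes arterial tortuosity syndrome. It read 7.54, 7.58 and 7.95 in control, 7.53, 7.53 and 7.84 on day 1, 7.64, 7.73 and 7.50 on day 2, 7.95, 7.84 and 8.03 on day 3, and 8.22, 8.21 and 8.35 on day 4. Day 4 alone had all of its arrays above all control arrays. The change on day 4 was 0.57 (SE 0.12, 1.49-fold, adjusted p 0.0345), and day 4 was 1.55-fold above day 2 (0.64, adjusted p 0.0232). The call against control was lost without RANKL day 2 replicate 1, any 1 of the day 4 arrays, or control replicate 1 or 2 (changes 0.50 to 0.60, adjusted p 0.0572 to 0.169). The call against day 2 was lost without day 2 replicate 1 or 3 or day 4 replicate 1 or 3 (changes 0.57 to 0.65, adjusted p 0.0787 to 0.115). Ordinary statistics ended both calls (0.0975 and 0.0835), and fitting only 2 groups ended the call against control (0.0901). Tuft and enteroendocrine markers were also highest in number called on day 4, and their part in the result was not tested. Between RANKL days, 2 of 39 members were called on day 4 against day 2 (5.13%, against 0.722% of all genes), and these were Slc2a10 and Slc2a6. On day 2 against day 1, limma called 0 members, against 0.201% of all genes (40 genes, and 69 with the replicate number as a block). Its unadjusted p was under 0.05 for 4 of the 39 members, against 6.97% of all genes.

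Slc2a13 fell. It encodes HMIT, a proton-coupled myo-inositol transporter. Values were 8.61, 8.52 and 8.50 in control, 8.06, 7.84 and 8.03 on day 1, 7.90, 7.91 and 8.09 on day 2, 8.45, 8.02 and 8.19 on day 3, and 8.18, 8.04 and 8.43 on day 4. Every RANKL array lay below every control array. The change was −0.56 on day 1 (SE 0.12, 1.48-fold lower, adjusted p 0.0149) and −0.57 on day 2 (1.49-fold lower, adjusted p 0.0174), and −0.32 on each of days 3 and 4 (adjusted p 0.179 and 0.355). Without control replicate 1 the day 1 call was lost (−0.53, adjusted p 0.0554). On day 2 it was lost without RANKL day 2 replicate 1 or 2 or control replicate 1 or 3 (−0.60 to −0.54, adjusted p 0.0548 to 0.0850), with median centring (0.0763) and with ordinary statistics (0.0547).

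Slc16a6 rose on every day. It encodes MCT7, which in zebrafish liver exports ketone bodies. It read 7.52, 7.45 and 7.61 in control, 8.59, 8.26 and 8.50 on day 1, 8.76, 8.74 and 8.68 on day 2, 8.48, 8.91 and 8.91 on day 3, and 8.31, 8.64 and 8.18 on day 4. The lowest RANKL array stood clear of the highest control array on each day. The changes were 0.92, 1.20, 1.24 and 0.85 (SE 0.13), or 1.89-, 2.30-, 2.36- and 1.81-fold, with adjusted p of 0.00126, 0.000144, 0.000156 and 0.00604. All 4 calls held under each of the 26 alternative settings, which include leaving out each array in turn.

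Slc16a3 encodes MCT4, the lactate exporter of glycolytic cells. It read 9.16, 8.72 and 8.84 in control, 8.40, 8.97 and 8.79 on day 1, 9.60, 9.48 and 9.73 on day 2, 9.03, 9.33 and 9.57 on day 3, and 9.67, 9.26 and 9.30 on day 4. The day 2 and day 4 arrays lay above all control arrays and the day 1 arrays overlapped them. The moderated F test called it (adjusted p 0.0326). It was no longer called when RANKL day 1 replicate 1 or 3, any 1 of the day 2 arrays, day 3 replicate 2 or control replicate 2 or 3 was left out (adjusted p 0.0527 to 0.0796), or with ordinary statistics (0.125). No single day passed, the nearest being day 2 with a change of 0.69 (SE 0.17, adjusted p 0.0511). Without RANKL day 1 replicate 1 or 2, day 3 replicate 1 or 3, day 4 replicate 1 or control replicate 1, that day 2 change passed (0.69 to 0.82, adjusted p 0.0309 to 0.0488). It also passed under 6 of the 11 settings other than leaving out 1 array. The difference of day 2 over day 1 was 0.88 (adjusted p 0.0655) and passed under 4 of the 26 alternative settings.

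Slc16a1 encodes MCT1, the lactate and short-chain fatty acid carrier of the gut. It read 9.42, 9.59 and 9.64 in control, 9.88, 9.76 and 10.00 on day 1, 10.05, 9.96 and 9.84 on day 2, 9.72, 9.97 and 10.18 on day 3, and 9.82, 10.01 and 9.73 on day 4. Every RANKL array lay above every control array, by changes of 0.33, 0.40, 0.41 and 0.31 (SE 0.12) that did not pass the test (adjusted p 0.160, 0.109, 0.0806 and 0.393). Without RANKL day 3 replicate 1 the day 3 change passed (0.53, adjusted p 0.0289). Of the 11 settings other than leaving out 1 array, the day 1 and day 3 changes passed under 1 each.

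**Figure D2:**
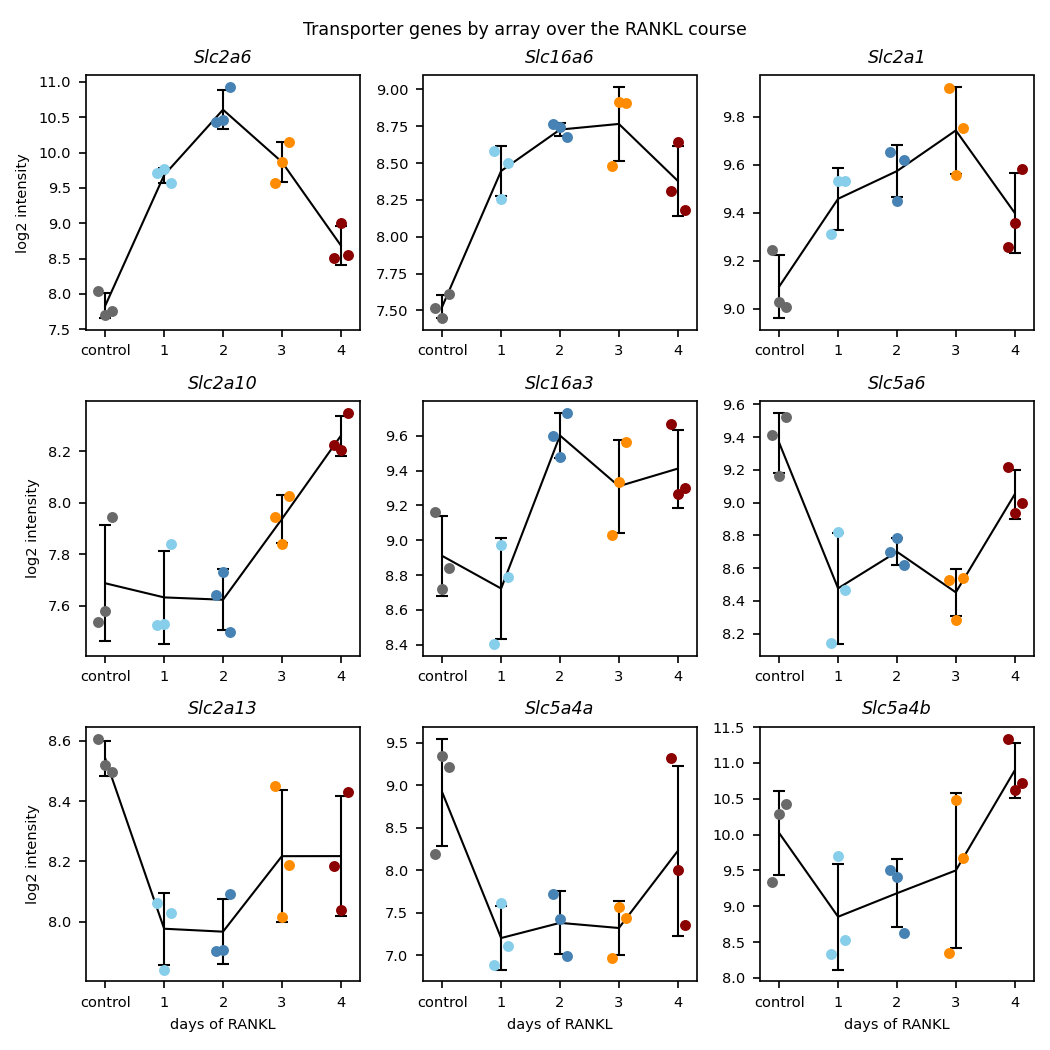
Log2 intensity of 9 members on each array (points) with the group mean and SD (black line and bars, n = 3), in control and after 1 to 4 days of RANKL, each panel on its own scale. Slc2a6 was highest on day 2, Slc16a6 stayed high on all 4 days, Slc2a10 was highest on day 4, Slc5a6 and Slc2a13 were lower than in control on days 1 and 2, and Slc5a4a was called lower on day 1 alone.

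Among the sodium-coupled carriers, Slc5a6 encodes SMVT, which takes up biotin and pantothenate. It read 9.41, 9.16 and 9.52 in control, 8.14, 8.82 and 8.46 on day 1, 8.70, 8.78 and 8.62 on day 2, 8.53, 8.28 and 8.54 on day 3, and 9.22, 8.94 and 9.0 on day 4. The arrays of days 1 to 3 all lay below the control arrays, and those of day 4 overlapped them. The changes on days 1 to 3 were −0.89 (SE 0.15, 1.85-fold lower, adjusted p 0.00362), −0.67 (1.59-fold lower, adjusted p 0.0287) and −0.91 (1.88-fold lower, adjusted p 0.00469), and on day 4 −0.31 (adjusted p 0.530). The day 2 call was lost without any 1 of the day 2 arrays or control replicate 1 or 3 (−0.71 to −0.59, adjusted p 0.0715 to 0.142) and with ordinary statistics (0.0876). The day 1 call held without each array but was lost with only the 2 groups fitted (adjusted p 0.0746).

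Slc5a4a and Slc5a4b are neighbours on chromosome 10 and encode SGLT3a and SGLT3b, of which SGLT3a is described as a glucose sensor that passes sodium rather than sugar. Slc5a4a read 8.19, 9.34 and 9.22 in control, 6.89, 7.61 and 7.11 on day 1, 7.73, 7.43 and 6.99 on day 2, 6.96, 7.56 and 7.43 on day 3, and 9.32, 8.0 and 7.36 on day 4. Every array of days 1 to 3 lay below every control array, while day 4 spread from 7.36 to 9.32 and overlapped both. The changes were −1.71 (SE 0.42, 3.28-fold lower, adjusted p 0.0376), −1.54 (0.0844), −1.60 (0.0620) and −0.69 (0.669) over the 4 days, so that day 1 passed alone. That call was lost without RANKL day 1 replicate 1 or 3, day 2 replicate 2, day 3 replicate 3 or control replicate 2 or 3 (−1.71 to −1.50, adjusted p 0.0534 to 0.147). It was also lost with values as deposited (0.0511), a trended and robust prior (0.0550), only the 2 groups fitted (0.0552), median centring (0.0568) and ordinary statistics (0.112). Days 2 and 3 passed without control replicate 1 or day 4 replicate 1 or 3, and day 3 also without day 1 replicate 2. The changes were then −1.90 to −1.54 on day 2 (adjusted p 0.0212 to 0.0496) and −1.96 to −1.60 on day 3 (adjusted p 0.0183 to 0.0428). In all, day 2 passed under 4 and day 3 under 7 of the 26 alternative settings.

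Slc5a4b read 9.34, 10.29 and 10.43 in control, 8.34, 9.70 and 8.52 on day 1, 9.50, 9.41 and 8.63 on day 2, 8.34, 10.48 and 9.67 on day 3, and 11.34, 10.62 and 10.73 on day 4. The day 4 arrays were above the control arrays and the other days overlapped them. Its changes of −1.17, −0.84, −0.52 and 0.87 (SE 0.49) did not pass (adjusted p 0.270, 0.589, 0.694 and 0.641). Outside the families, Hectd3 and Cyp17a1 (r 0.92 each) and Inpp4a, Fnip1 and Cyp3a25 (0.90 each) were most like Slc5a4a over the same 15 arrays.

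The main routes of dietary sugar did not pass the test on any day. Slc5a1 (SGLT1) read 12.57, 13.00 and 13.00 in control, 12.38, 13.02 and 12.88 on day 1, 13.00, 12.84 and 13.09 on day 2, 12.57, 12.74 and 12.83 on day 3, and 13.14, 13.12 and 12.66 on day 4. Its changes were −0.10, 0.12, −0.14 and 0.12, with 95% intervals of −0.47 to 0.27, −0.25 to 0.49, −0.52 to 0.23 and −0.26 to 0.49 (adjusted p 0.881, 0.889, 0.767 and 0.878). Groups overlapped on every day. For Slc2a5 (GLUT5, the fructose transporter) the arrays read 10.71, 10.33 and 10.72 in control, 10.11, 10.97 and 10.59 on day 1, 11.01, 10.66 and 11.61 on day 2, 9.72, 10.79 and 10.19 on day 3, and 11.13, 11.07 and 10.18 on day 4. Its changes were −0.03, 0.51, −0.35 and 0.21 (SE 0.32), and each day's arrays overlapped those of control.

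Slc2a2 (GLUT2) was the most variable of these. It read 8.11, 8.87 and 9.13 in control, 7.48, 9.95 and 8.31 on day 1, 9.88, 9.58 and 9.60 on day 2, 7.35, 9.51 and 8.04 on day 3, and 10.94, 10.53 and 8.13 on day 4. Arrays of the same day lay far apart on days 1, 3 and 4, and the whole range was 3.59. The day 2 arrays lay close together and all above the control arrays, though the change did not pass (adjusted p 0.714). On the other days the arrays overlapped those of control. The changes were −0.12, 0.99, −0.40 and 1.16 (SE 0.73), with a 95% interval on day 4 of −0.41 to 2.74, so a rise or a small fall could not be told apart.

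Much of the spread within groups was shared. Lct (lactase), a brush border enzyme more abundant in the proximal than in the distal small intestine, read 8.07, 10.46 and 10.73 in control, 9.09, 11.78 and 9.33 on day 1, 10.80, 10.53 and 10.31 on day 2, 8.55, 10.86 and 8.70 on day 3, and 12.03, 11.76 and 8.57 on day 4. Its changes of 0.31, 0.79, −0.38 and 1.03 (SE 0.99) did not pass the test. With each array's deviation from its group mean, Slc5a11 (SMIT2, a myo-inositol carrier) had a Pearson r of 0.97 with Lct over the 15 arrays (Spearman 0.98, and r 0.95 without RANKL day 4 replicate 3 and day 1 replicate 2). For Slc2a2 the values were 0.95, 0.98 and 0.91. Slc5a12 (SMCT2, a carrier of lactate) had 0.90, 0.92 and 0.89, and Slc16a10 (TAT1, a carrier of aromatic amino acids) had 0.90, 0.94 and 0.85. The arrays that were low in Lct for their group thus tended to be low in these 4 genes too.

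Slc5a4a (0.81, 0.81 and 0.74), Slc5a1 (0.77, 0.80 and 0.65), Slc2a7 (GLUT7; 0.76, 0.85 and 0.65) and Slc5a4b (0.73, 0.83 and 0.76) followed. In all, 8 of 39 members had an r of 0.7 or more, beside 1.69% of all genes. Slc2a13 had −0.81, −0.82 and −0.73, the 1 member at −0.7 or below, beside 2.05% of all genes. Slc2a6 had an r of 0.01 and Slc16a6 an r of 0.22. Outside the families, Slc15a1 (the peptide carrier PEPT1) had an r of 0.91 and Gata4, a transcription factor gene of the proximal gut, 0.84. Slc10a2 and Fabp6, genes of ileal bile acid uptake, had −0.75 and −0.69, while the proliferation gene Mki67 had −0.01 and the leukocyte gene Ptprc 0.24. Some of these genes also lay apart between groups. Slc10a2 read at most 11.51 on the RANKL arrays, against 11.65 to 11.87 on the control arrays, so the groups did not overlap, with changes of −0.81, −1.07, −1.09 and −1.01 (SE 0.41) over the 4 days. Gata4 read 9.56 to 10.15 on day 1 and 9.68 to 10.01 on day 2, above the 8.53 to 9.41 of control. On days 3 and 4 it overlapped control, and its changes were 0.73, 0.76, 0.33 and 0.49 (SE 0.33). Fabp1, a fatty acid binding protein gene whose r with Lct was 0.86, changed by −0.14, 1.33, 1.19 and 1.40 (SE 0.59). None of these changes of Slc10a2, Gata4 and Fabp1 passed the test (adjusted p 0.199 to 0.958). The correlations are over arrays that share hybridisation and normalization. The labels name the small intestine without a segment, and the part of segment in these results was not tested.

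With the Lct level of each array as a covariate, an alternative chosen after seeing the data, Slc5a4a was called on days 1, 2 and 3, with changes of −1.82, −1.81 and −1.47 (adjusted p 0.00151, 0.00228 and 0.00884). Slc2a7 on day 1 (−0.94, adjusted p 0.0121; without the covariate −0.87, adjusted p 0.107) and Slc5a11 on day 3 (−0.62, adjusted p 0.00459; without it −0.75, adjusted p 0.304) also passed in that fit. Slc2a1 on day 1 (0.38, adjusted p 0.0469) and Slc2a13 on day 3 (−0.36, adjusted p 0.0347) passed as well, and Slc2a6 on day 4 was lost (0.85, adjusted p 0.0541).

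**Figure D3:**
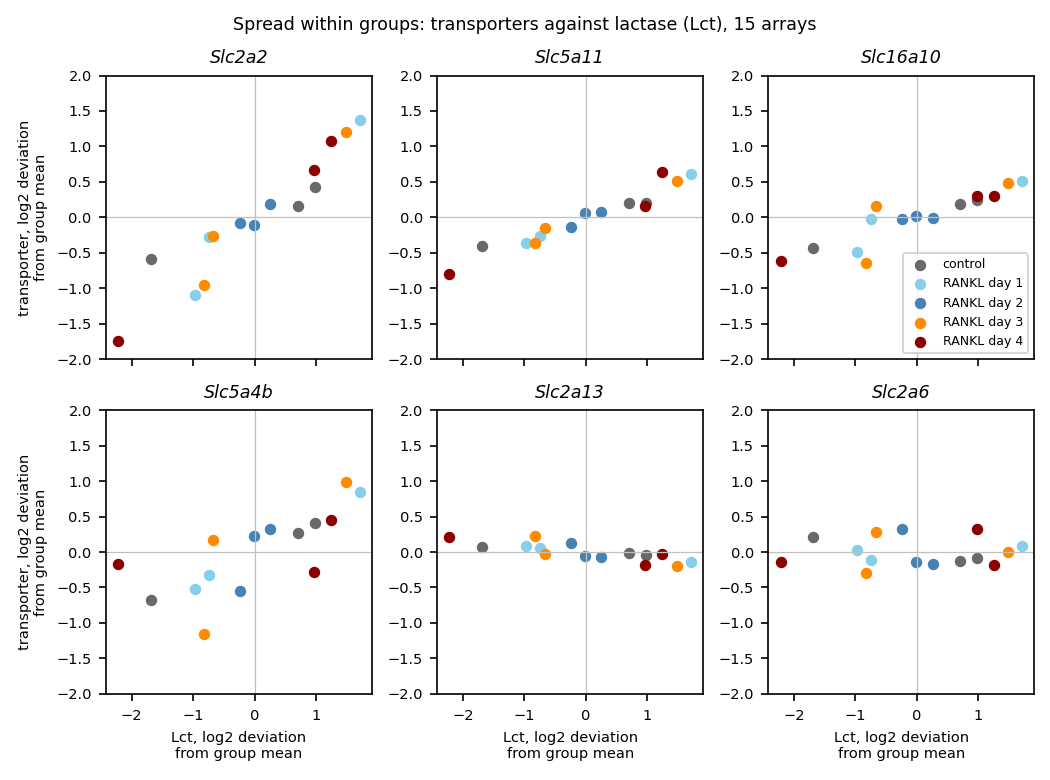
Deviation of each array from its group mean (log2) for 6 members against that of Lct, 15 arrays, coloured by group. Slc2a2, Slc5a11, Slc16a10 and Slc5a4b rise with Lct (r 0.95, 0.97, 0.90 and 0.73), Slc2a13 falls (r −0.81) and the points of Slc2a6 lie level (r 0.01).

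In all, 31 of the 39 members gave no call in any comparison, a tally with no like share of all genes beside it. Among them, 14 members, 3 Slc2a, 4 Slc5a and 7 Slc16a genes, had a mean over the 15 arrays at or below 7.28, the 95th percentile of 1027 olfactory receptor genes, which are little expressed outside the nose. None of the 14 was called, and their largest change against control was 0.188 in size. They include Slc2a3 (GLUT3, of neurons), Slc2a4 (GLUT4, of muscle and fat), Slc5a5 (the iodide carrier NIS), Slc5a7 (the choline carrier of nerve endings) and Slc16a7 (MCT2). A signal this dim may be background, so the absence of a change here says little. Members above 7.28 without a call include Slc5a8 (SMCT1, a carrier of short-chain fatty acids), Slc2a8, Slc2a9 (GLUT9, a urate carrier), Slc5a9 and Slc16a5. Of these, Slc2a8 had a mean of 7.38, close to that limit. Slc16a9 was the single member with 2 probe sets, of which the brighter was used.

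Genes that act on the carried sugars were counted by list. Of 22 measured glycolysis genes, 1, 1, 3 and 1 were higher and 1, 0, 0 and 0 lower on days 1 to 4. Of all genes, 3.94%, 2.57%, 2.96% and 0.908% were called in either direction on those days. Eno3, the enolase of muscle, was higher on all 4 days (1.58, 1.66, 1.33 and 1.43, adjusted p 0.000771, 0.000620, 0.00452 and 0.00406). Its arrays read 9.64 to 10.55 over the RANKL days, against 8.59, 8.82 and 8.60 in control. Pgk1 and Pfkl, enzymes of the middle of glycolysis, were higher on day 3 (0.60 and 0.57, adjusted p 0.0224 and 0.0243), and Hkdc1, a hexokinase-related gene, was lower on day 1 (−0.54, adjusted p 0.0210). The list's median change was 0.00, 0.10, 0.07 and 0.13, beside −0.01, −0.02, −0.01 and 0.01 for all genes. Its summed intensity was 28062 to 29270 in control, 28190 to 30648 on day 1 and 31432 to 36681 on day 2. On days 3 and 4 it was 29802 to 33140 and 32692 to 34836, so days 2 to 4 lay above control. With limma's unadjusted p under 0.05 were 4, 9, 5 and 7 of the 22, against 14.9%, 11.9%, 16.2% and 9.66% of all genes.

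Of 16 measured genes of fructose and galactose use and glucose sensing, limma called 0 on any day, with 2 to 6 at an unadjusted p under 0.05. Khk (ketohexokinase, the first step of fructose use) changed by −0.37, −0.16, −0.48 and −0.01, none of which passed. Of 14 genes of MCT chaperones and of lactate, pyruvate or ketone handling, 1 rose (Bdh1, of ketone body use, on day 1 with 0.52, adjusted p 0.00628) and 1 fell. The one that fell was Pdk2, whose product inhibits pyruvate dehydrogenase, with −0.50, −0.49 and −0.65 on days 1 to 3 (adjusted p 0.0159, 0.0234 and 0.00462). Bsg (basigin), the chaperone of MCT1 and MCT4, was not among the genes called. The summed intensity of these 14 genes was 11961 to 13005 on day 1, below the 13440 to 14212 of control. On days 2 to 4 it overlapped that of control. Of 18 brush border disaccharidases and regulators of sugar transport, 0, 1, 1 and 2 were higher on days 1 to 4. These were Trpm5, a cation channel of taste and tuft cells (0.80, 0.88 and 1.16 on days 2 to 4, adjusted p 0.0340, 0.0191 and 0.00626), and Gnat3 on day 4 (0.35, adjusted p 0.0369), whose mean over the 15 arrays, 5.28, lay within the 4.88 to 5.50 of the Y chromosome genes and whose day 4 arrays read 5.56, 5.47 and 5.58. Trpm5 stands in the tuft cell list as well, whose part in the result was not tested, and no disaccharidase was called.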

How the data were processed

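Total RNA of peeled small intestinal epithelium was hybridised to Affymetrix whole-transcript arrays. The deposited table holds 1 intensity per probe set and array, linear, from 25.9 to 24107. How the authors summarised and normalized the probes is not given in the sources used here, and the build mm9 is named in the submitters' processing notes. Of 28853 probe sets, 21789 had 1 gene symbol in the platform annotation and were kept (1621 had several, 5443 were not listed), giving 19938 genes, each read from its brightest probe set. Symbols were checked by gene ID against RefSeq for 19856 genes. Because log2 array medians differed by 0.184, over a limit of 0.1, the log2 intensity values (no offset) were quantile normalized.

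limma 3.58.1 in R 4.3.3 fitted 1 mean per group to the 15 arrays (10 residual degrees of freedom). Tests were two-sided, adjusted by Benjamini-Hochberg over all genes and tested on simulated data. The precision is limited by 3 arrays per group. All 39 members were accounted for. Array values are given for members called in any of the 6 comparisons or by the F test, for 5 named intestinal transporters, and for Slc2a6 and Slc5a4a, with Slc5a4b and Lct added after their values were seen. Up to 4 called genes per related list, and the 5 genes most like Slc2a6 and Slc5a4a, are named. Replicate numbers did not enter the fit. Deviations of same-numbered arrays correlated at −0.20 to 0.50, with 19 of 30 over 0.1. All 3 were over 0.1 in 3 of the 10 pairs of groups (day 2 with day 1, day 2 with control and day 3 with control), and the labels do not say what a number marks. Members, gene lists and marker lists were chosen with earlier results of these data known. Alternatives varied the scaling, offset, dim-gene filter, probe set choice, variance prior, array weights, replicate block, samples in the fit and each array in turn.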

Additional observations from a re-analysis of the deposited data

Results flagged for a closer look

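Members whose difference from control changed between day 4 and day 2, by limma's test of that difference, were Slc2a6 and Slc2a10. For Slc2a6, the carrier GLUT6, the difference from control on day 4 minus that on day 2 was −1.92 on the log2 scale (adjusted p 0.000163). For Slc2a10, the carrier GLUT10, the same difference was 0.64 (adjusted p 0.0232). Since both days share the control arrays, each of these is the same number as day 4 against day 2 directly.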

How the results depend on the processing

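Over 78 changes of named members and 27 settings each, no called change turned its direction. The number of members called moved as follows. On day 1 (5 members) it was 11 with array weights and 3 with only the 2 groups fitted. On day 2 (5) it was 2 with ordinary statistics and 2 to 7 with 1 array left out, the 2 arising without RANKL day 2 replicate 1 or 2 or control replicate 3. On day 3 (4) it was 7 with Lct as a covariate, an alternative chosen after seeing the data. On day 4 (3) it was 1 with ordinary statistics, 1 with only the 2 groups fitted and 1 to 3 with 1 array left out, the 1 arising without any 1 of the day 4 arrays or control replicate 2. Day 2 against day 1 (0) gave 1 with values as deposited, 1 with median centring, 2 without the dimmest 40% of genes, 1 with a trended and robust prior, 5 with array weights and 0 to 1 with 1 array left out. Day 4 against day 2 (2) gave 1 with ordinary statistics and 1 to 2 with 1 array left out (1 without day 2 replicate 1 or 3 or day 4 replicate 1 or 3). The F test (7) gave 11 with array weights, 2 with ordinary statistics, 11 with Lct as a covariate and 4 to 7 with 1 array left out (4 without day 2 replicate 1 or control replicate 2 or 3). Fewer arrays enter the fits with 1 left out or with 2 groups; otherwise the cause was not tested.

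Over all genes, day 1 had 785 calls (480 with median centring), day 2 had 513 (311 with median centring) and day 3 had 590 (378 as deposited, 257 with median centring). The share of higher calls on day 1 was 50.7%, and 37.3% with median centring. On day 2 against day 1 that share was 72.5%, and 82.4% as deposited and 94.7% with median centring, over 40, 17 and 19 calls. Over the settings other than leaving out an array the range was 269 to 1517 on day 1, 311 to 930 on day 2, 257 to 1322 on day 3, 107 to 307 on day 4, 5 to 711 on day 2 against day 1, 58 to 1002 on day 4 against day 2 and 342 to 2462 for the F test, and with 1 array left out 445 to 1005, 283 to 721, 236 to 1189, 94 to 338, 7 to 53, 52 to 218 and 430 to 1037. With the replicate number as a block, a pairing that the deviations bear out in some comparisons and not in others, 5, 5, 4 and 3 members were called on days 1 to 4, 0 on day 2 against day 1, 2 on day 4 against day 2 and 7 by the F test, the same counts as without it, while genes called on day 2 against day 1 numbered 69, against 40.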
